A study of Mus musculus with 16 samples.

Results

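Enhancers that lost H3K4me1 were 2633 of the 26676 enhancers found in mouse CD8+ T cells cultured with or without an inhibitor of the histone demethylase LSD1. They were selected on the peak lists of the vehicle (Veh) and GSK2879552 (GSK) cultures. The Veh and GSK peaks of H3K4me1 and H3K4me2 were joined wherever they overlapped, which gave 47850 regions. Promoters were taken out by leaving aside regions that touched any H3K4me3 peak or lay closer than 2.5 kb to a curated RefSeq transcription start site (TSS). A region with a Veh H3K4me1 peak and no GSK H3K4me1 peak is called lost here, 17898 regions with H3K4me1 in both treatments are called kept, and 6013 with H3K4me1 in GSK only are called gained. The other 132 enhancers carried H3K4me2 alone. Presence of H3K4me1 therefore chose the members, and the H3K4me1 values below are a description with no test.

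The cells were splenic CD8+ T cells of OT1 mice, whose transgenic T cell receptor recognises an ovalbumin peptide. All cultures were activated with antibodies to CD3 and CD28 plus IL-2 for 48 h, followed by 3 days of expansion in IL-2. GSK cultures received 0.5 μM GSK2879552, an irreversible LSD1 inhibitor, throughout activation and expansion, and Veh cultures received the solvent (0 μM). Chromatin immunoprecipitation sequencing gave 1 library and 1 peak list for each of 6 antibodies and each treatment, so a difference between Veh and GSK has no replicate check and no p-value is given.

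A single transgenic receptor and culture in IL-2 limit these cells as a model of CD8+ T cells in an animal. At the promoters of 7 CD8 T cell marker genes with a curated TSS, including Cd3e, Cd8a and Lck, 7 carried an H3K4me3 peak in both treatments. Pol II was called at 4 of these 7 in Veh and at 6 in GSK, and at Cd8a in neither. A missing Pol II peak therefore does not by itself separate the cell types. Among markers of other cells, H3K4me3 was present in Veh at 2 of 6 for B cells, 2 of 7 for myeloid cells, 2 of 4 for erythroid cells, 1 of 4 for CD4 T cells and 0 of 3 for NK cells. The same markers carried it in GSK except the myeloid gene Spi1, which had H3K4me3 and Pol II in Veh only. No other marker of these other cells had Pol II in either treatment, and Cd4, Foxp3 and Lyz2 had neither mark.

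Enhancers are stretches of DNA away from promoters that raise transcription of nearby genes, and monomethylation of lysine 4 of histone H3 (H3K4me1) marks them whether or not they are in use. Acetylation of lysine 27 (H3K27ac) is added at enhancers that are in use. LSD1 strips methyl groups from mono- and dimethylated H3K4, and works in complexes with CoREST proteins and histone deacetylases.

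The length of a peak list depends on depth as well as on enrichment, and no read number is part of the lists. The GSK H3K4me1 list was longer than the Veh list, with 40272 against 34387 peaks. The study states that its GSK H3K4me1 library was also sequenced more deeply than its Veh H3K4me1 library. The GSK H3K27ac list stood apart in the other direction, with 2751 peaks against 7410 in Veh, and H3K4me2 had 9437 against 15219. By the depths the study states, the GSK libraries of H3K27ac, H3K4me2 and LSD1 were the shallower ones, by far the most for H3K27ac. Depth thus ran the same way as the length of these lists. Pol II did not follow this order. Its GSK library was the deeper one, but its list was slightly shorter, with 15401 peaks against 15638 in Veh. The study also describes drawing equal read numbers at random to compare signals, and it is not clear whether peaks were called on those reads. A mark without a GSK peak below is therefore only a peak that was not called. The part of depth in any difference between the treatments was not tested.

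The sequences of 6 members are shown first, each as 200 bp of the plus strand of GRCm38 (mm10) from RefSeq. The first 2 were among the 3 lost enhancers with the highest Veh H3K4me1 −log10 q, the next 3 had the highest Veh LSD1 −log10 p, and the last lies in Pdcd1, which encodes the inhibitory receptor PD-1. Windows are centred on the member, or on the Veh LSD1 summit for those with LSD1, which at Eps8l3 lies outside the member. Capitals mark matches to the motifs listed further below, on either strand.
Sgk1 intron 1, chr10:21911838-21912037: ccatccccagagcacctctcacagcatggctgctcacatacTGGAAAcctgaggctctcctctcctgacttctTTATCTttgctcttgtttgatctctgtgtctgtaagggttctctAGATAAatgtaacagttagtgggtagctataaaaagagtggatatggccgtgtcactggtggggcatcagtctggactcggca
Cdk6 intron 4, chr5:3460222-3460421: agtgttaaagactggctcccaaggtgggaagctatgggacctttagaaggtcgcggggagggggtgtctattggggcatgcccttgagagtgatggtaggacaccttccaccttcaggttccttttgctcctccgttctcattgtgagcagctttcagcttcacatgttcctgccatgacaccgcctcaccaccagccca
Eps8l3, chr3:107846282-107846481: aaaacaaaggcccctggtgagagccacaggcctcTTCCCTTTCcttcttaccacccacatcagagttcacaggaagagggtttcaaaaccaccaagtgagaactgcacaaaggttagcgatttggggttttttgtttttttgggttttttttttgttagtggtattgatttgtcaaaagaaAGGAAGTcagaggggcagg
Ssh2 intron 2, chr11:77386477-77386676: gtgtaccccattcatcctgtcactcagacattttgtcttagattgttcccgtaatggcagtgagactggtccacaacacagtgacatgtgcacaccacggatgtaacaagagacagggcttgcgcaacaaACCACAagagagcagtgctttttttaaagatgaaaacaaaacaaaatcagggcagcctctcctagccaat
Zfp36, chr7:28383280-28383479: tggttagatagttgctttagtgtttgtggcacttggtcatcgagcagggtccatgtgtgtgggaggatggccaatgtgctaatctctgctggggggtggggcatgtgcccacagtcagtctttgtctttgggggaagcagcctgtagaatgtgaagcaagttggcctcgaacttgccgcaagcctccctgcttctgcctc
Pdcd1 intron 1, chr1:94047567-94047766: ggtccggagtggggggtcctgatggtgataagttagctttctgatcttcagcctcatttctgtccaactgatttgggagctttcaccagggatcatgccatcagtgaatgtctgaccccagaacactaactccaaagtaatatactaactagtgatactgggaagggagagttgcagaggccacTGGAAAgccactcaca
The Sgk1 window held 2 GATA matches and 1 NFAT match, and the Pdcd1 window held 1 NFAT match. The Ssh2 window held 1 RUNX match, while the Cdk6 and Zfp36 windows held no match to any motif searched. The GC content of the windows ran from 44% at Eps8l3 to 55.0% at Cdk6.

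Lost enhancers were weak and narrow members of the Veh H3K4me1 list. Of the 20531 enhancers with Veh H3K4me1, 2633 were lost, which is 12.8%, with a Wilson 95% interval from 12.4% to 13.3%. The count rests on where the lists end. It was 4195 (20.4%) with H3K4me1 lists of equal length, a cut that took peaks from the GSK list alone, so the count could only rise. It was 717 (3.49%) when a lost peak had to reach a −log10 q of 5. Of the 23911 enhancers with GSK H3K4me1, 25.1% were gained (24.6% to 25.7%). There were thus 0.438 lost enhancers for each gained enhancer (0.418 to 0.458). When both H3K4me1 lists were held to the same number of peaks this ratio became 1.08. Lists of equal length bring such a ratio near 1 by construction, so this value is no check on the excess of gained enhancers. These intervals, and all others given, cover counting error only, and neighbouring regions are not independent.

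The Veh H3K4me1 peaks of lost enhancers had a median −log10 q of 4.30, with quartiles of 3.77 and 5.11, against 6.0 at kept enhancers. The lists began just above 3, so most lost peaks lay near the level at which a peak was called. Fold enrichment over local background, the deposited ratio, did not separate the groups in the same way, with medians of 4.09 at lost and 4.02 at kept enhancers. The median Veh peak width was 430 bp at lost and 929 bp at kept enhancers.

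The share of Veh enhancers that were lost differed by strength. It was 34.9% (33.1% to 36.7%) for 2769 enhancers with a −log10 q from 3 to 4. It was 10.8% between 5 and 6, and 0.366% (0.186% to 0.721%) at 10 or more, where 8 of 2184 were lost. The gained share of GSK enhancers had the same order, with 59.7% between 3 and 4 and 3.10% at 10 or more, and lay above the lost share in every class of strength. Width gave a like order, from 36.4% lost for Veh peaks under 400 bp to 0.906% at 1500 bp or more.

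**Figure D1:**
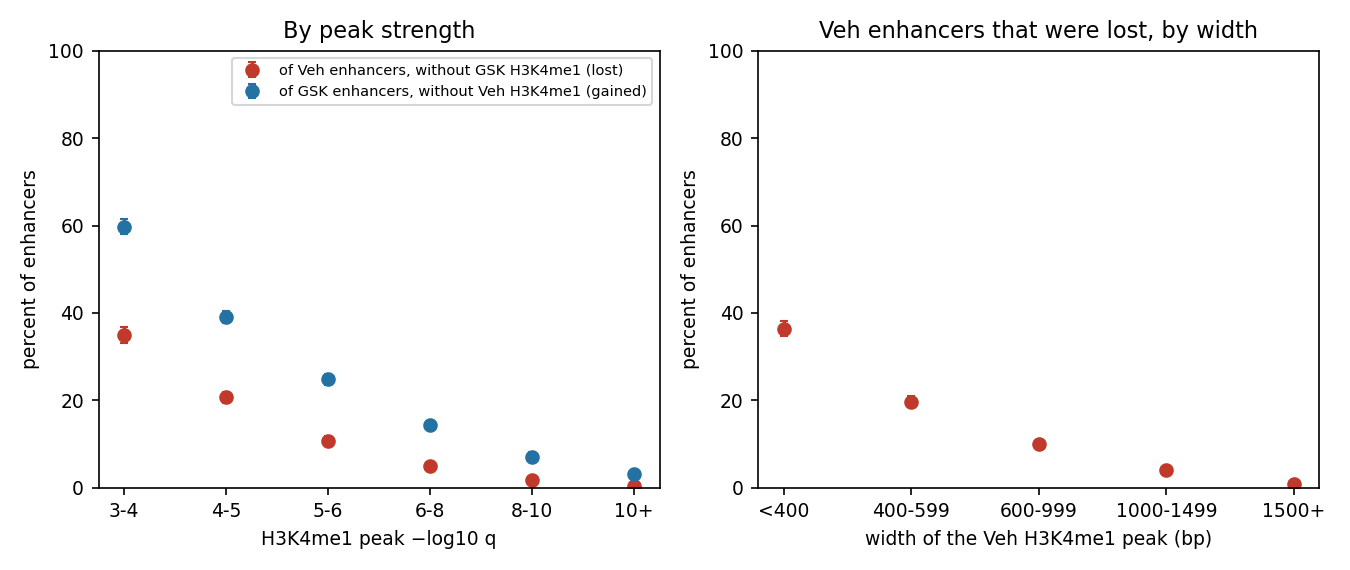
Left, the percent of Veh enhancers without GSK H3K4me1 (red) and of GSK enhancers without Veh H3K4me1 (blue), by the −log10 q of the H3K4me1 peak. Right, the percent of Veh enhancers that were lost, by width of the Veh peak in bp. Points are shares and bars are Wilson 95% intervals for counting error. The lost share was 34.9% in the weakest class and 0.366% in the strongest.

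All 2633 lost enhancers held a single Veh H3K4me1 peak, and 2612 of them had the borders of that peak exactly. Together they covered 1.43 Mb, against 24 Mb in kept enhancers. The narrowest was 270 bp. The widest was a 3143 bp stretch of Gsap intron 14, whose nearest TSS is that of LOC108169029, with Veh LSD1 at 7.11-fold and GSK LSD1 at 4.08-fold. The next 4 were in Add2 (2216 bp), near Tns4 (2115 bp), near Mir7094-1 within the immunoglobulin heavy chain locus (2106 bp) and in Ttll5 intron 30 (2048 bp). Add2 encodes beta adducin of the membrane skeleton, and Tns4 encodes the adhesion protein tensin 4.

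The nearest GSK H3K4me1 peak lay a median of 7.38 kb away, with quartiles of 3.39 kb and 17.0 kb. It was under 1 kb away at 153 members (5.81%), under 5 kb at 937 (35.6%) and under 10 kb at 1584 (60.2%). It was more than 100 kb away at 64 members. Members just inside the rule lay near Hk2 and Tnik, each with a GSK peak 3 bp away, and in Tbcd intron 13 at 5 bp. Just outside it, the Veh and GSK peaks shared 3 bp near 4930477N07Rik, 4 bp near 2900060N12Rik and 4 bp in an exon of Nfkbiz, and these 3 regions counted as kept.

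The 10 strongest lost enhancers had a Veh H3K4me1 −log10 q from 9.94 to 13.6. The strongest was a 404 bp region in intron 1 of Sgk1, a serine/threonine kinase downstream of PI3K, with 3.76-fold enrichment and the nearest GSK peak 3.57 kb away. The second lay 7.79 kb downstream of the TSS of 1700016G22Rik, with a −log10 q of 12.8. The third lay in intron 4 of Cdk6, a kinase of the G1 phase of the cell cycle, with a −log10 q of 11.9 and a Veh H3K27ac peak of 2.95-fold. GSK H3K27ac was not called there.

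Others among the strongest were in Vps8 intron 31 (11.3), near Kcnj16 (10.9) and in intron 1 of Fyb (10.7), which encodes the T cell receptor adaptor ADAP. Enhancers near Entpd4 (10.4) and Stc1 (10.3) on chromosome 14 followed, and Zcwpw2 intron 8 (9.95) and Mbp intron 3 (9.94) completed the set. At 9 of the 10 the nearest GSK peak was 1.09 kb to 22.3 kb away, and at Entpd4 it was 142 kb away. Of the 10, Fyb alone carried Veh LSD1 (3.34-fold), and Cdk6 and Mbp carried Veh H3K27ac.

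Lost enhancers rarely carried any of the other marks. In Veh, 2468 of 2633 (93.7%) had no LSD1, H3K4me2, H3K27ac or Pol II peak, against 68.5% of kept enhancers. Overlap was counted over the whole region, and kept regions were wider, with a median of 1205 bp against 432 bp. These 2 shares were not compared at equal width. In neither treatment did 2430 members (92.3%) have one. At a member with no called peak, a level below the peak threshold cannot be told apart from none.

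LSD1 was the most frequent of the other marks. A Veh LSD1 peak overlapped 108 lost enhancers, which is 4.10% (3.41% to 4.93%), against 23.4% of kept and 5.99% of gained enhancers. A GSK LSD1 peak overlapped 58 lost enhancers (2.20%), against 15.9% of kept and 4.27% of gained. Kept enhancers were wider than lost ones, in the Veh peak itself and after the peaks of both treatments were joined, so the comparison was repeated in an equal window of 500 bp on either side of the centre. Veh LSD1 was then present at 5.55% of lost (4.73% to 6.49%), 21.6% of kept and 6.79% of gained enhancers.

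**Figure D2:**
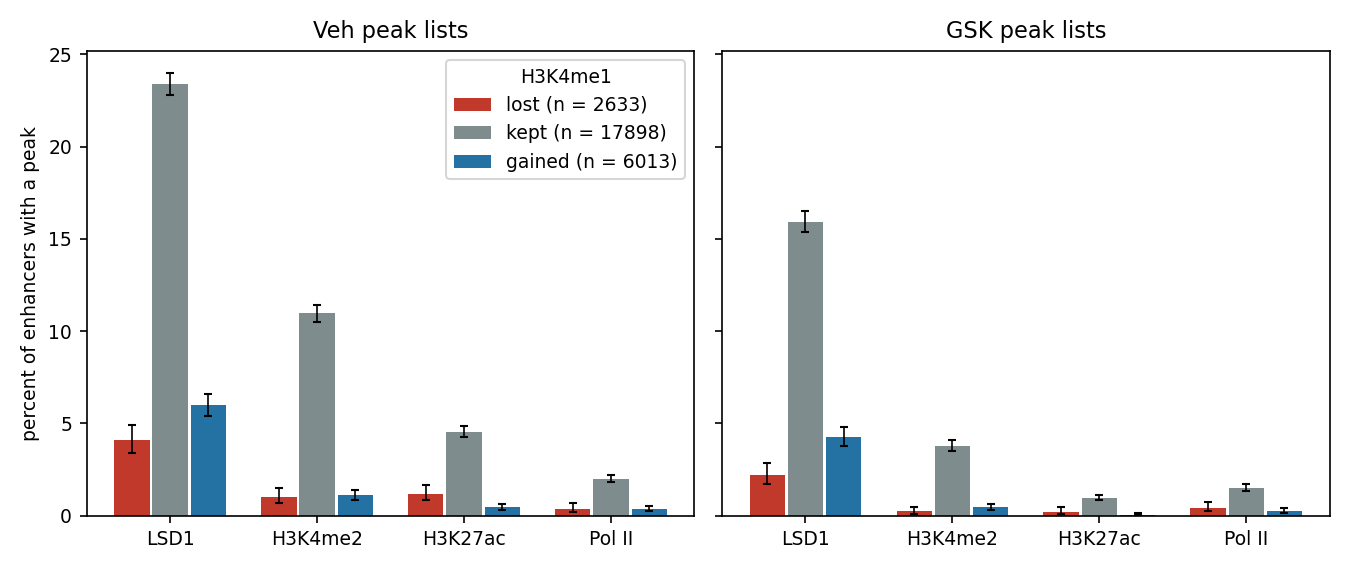
Percent of lost, kept and gained enhancers that overlapped a peak of LSD1, H3K4me2, H3K27ac or Pol II in the Veh lists (left) and the GSK lists (right). Bars start at 0 and whiskers are Wilson 95% intervals for counting error. Veh LSD1 overlapped 4.10% of lost and 23.4% of kept enhancers. Kept regions were wider than lost ones.

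Read the other way, 2.52% of the 4291 Veh enhancers with Veh LSD1 were lost (2.09% to 3.03%), against 15.5% of the 16240 without it (15% to 16.1%). Enhancers with LSD1 also had stronger H3K4me1, so the shares were set beside each other in classes of strength. At a −log10 q from 3 to 4, 16.6% of enhancers with LSD1 (12.1% to 22.4%) and 36.3% without (34.5% to 38.2%) were lost. Between 4 and 5 the shares were 7.43% and 22.6%, and between 6 and 8 they were 0.846% and 6.53%. Between 8 and 10 they were 0.552% (0.215% to 1.41%) and 2.46% (1.81% to 3.33%). The intervals overlapped only at 10 or more, where 1 enhancer with LSD1 was lost. With LSD1 counted within 500 bp of the centre, the shares in the weakest class were 21.7% and 35.9%. In every class of Veh peak width the share was also lower with LSD1, from 16.8% against 37.7% under 400 bp to 0.346% against 1.39% at 1500 bp or more.

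**Figure D3:**
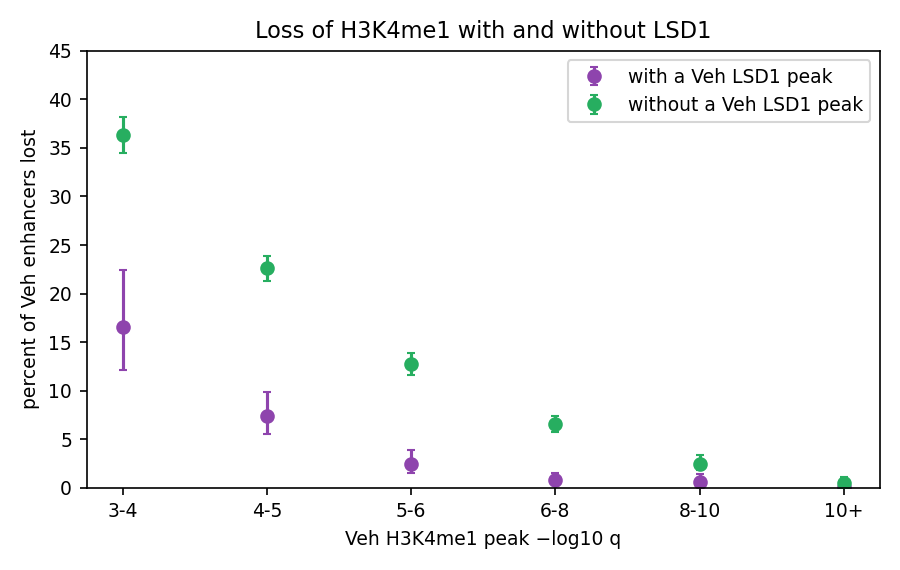
Percent of Veh enhancers that lost H3K4me1, by −log10 q of the Veh H3K4me1 peak, for enhancers with (purple) and without (green) a Veh LSD1 peak. Bars are Wilson 95% intervals for counting error. The purple points lie below the green ones in all 6 classes, with 16.6% against 36.3% in the weakest.

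Of the 108 lost enhancers with Veh LSD1, 84 had no GSK LSD1 peak, which is 77.8% (69.1% to 84.6%). Over all enhancers with Veh LSD1 this share was 57.9%. At gained enhancers it was 71.9% (67.1% to 76.3%), an interval that overlaps that of lost enhancers. The LSD1 peaks at lost enhancers were weaker, with a median −log10 p of 5.93 against 7.61 at kept enhancers. Among LSD1 peaks with a −log10 p from 5 to 8, 92.5% of 40 at lost enhancers (80.1% to 97.4%) and 67.0% of 1496 at kept enhancers (64.6% to 69.4%) had no GSK LSD1. From 8 to 15 the shares were 45% of 20 and 48.2% of 1304, and the intervals overlapped. An LSD1 peak in GSK alone was found at 34 of the 2525 lost enhancers without Veh LSD1 (1.35%), against 5.55% over all enhancers without Veh LSD1. A member 11.7 kb upstream of Bach2 was among the 34, with GSK LSD1 at 3.33-fold.

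The 5 lost enhancers with the strongest Veh LSD1 differed in what remained in GSK. Near Eps8l3, which encodes a relative of the EGF receptor substrate EPS8, LSD1 was 14.2-fold in Veh (−log10 p 76.6) and 7.71-fold in GSK (17.4). Its LSD1 summit lay outside the H3K4me1 region, which the LSD1 peak overlapped at its edge. In intron 2 of Ssh2, a phosphatase of the actin-severing protein cofilin, LSD1 was 13.6-fold in Veh (60.7) and no GSK peak was called.

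The third lay 3.98 kb upstream of Zfp36, whose product tristetraprolin speeds the decay of cytokine mRNAs. LSD1 there was 8.14-fold in Veh and 5.18-fold in GSK. In intron 2 of Nfkbil1, with the nearest TSS that of Atp6v1g2, the values were 7.16 and 5.87. The member near Mir7094-1 had 9.16-fold LSD1 in Veh and no GSK peak. LSD1 was thus called in both treatments at 3 of the 5. Strong LSD1 peaks mostly stayed on the list at all enhancers. With a Veh LSD1 −log10 p of 15 or more, 140 of 684 enhancers (20.5%) had no GSK LSD1. Among lost enhancers of that class it was 3 of 12 (8.89% to 53.2%).

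H3K27ac in Veh overlapped 31 lost enhancers (1.18%, 0.831% to 1.67%), against 4.55% of kept and 0.449% of gained enhancers. Of the 31, 26 had no GSK H3K27ac peak (83.9%), near the 80.5% over all enhancers with Veh H3K27ac. Of Veh enhancers with Veh H3K27ac 3.66% were lost, against 13.2% without it, and within classes of width the shares lay closer together. Of Veh peaks under 400 bp, 36.4% were lost with Veh H3K27ac (22.2% to 53.4%) and 36.4% without it (34.8% to 38.1%). In every wider class the share was lower with it, such as 13.0% against 19.8% from 400 bp to 600 bp. The intervals overlapped in every class of width. With 12 or fewer such members lost in a class, overlap cannot show that the difference was gone. By strength the intervals overlapped in every class except 5 to 6, where 3.05% (1.19% to 7.59%) and 11.1% (10.2% to 12.2%) were lost. The share was lower with Veh H3K27ac in every class of strength below 10.

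Among the 31 were members near Runx3 (16 kb upstream, 3.44-fold), Ccl5 (5.49 kb upstream, 3.36-fold), Stat4 intron 4 (2.98-fold), Ikzf1 intron 3 (2.95-fold) and Foxp1 intron 2 (2.67-fold), chosen after their values were seen for their place in T cells. The others lay near genes of many kinds, such as Adora3, Bptf, Abr and Nsd3. Runx3, Stat4, Ikzf1 and Foxp1 encode transcription factors, and Ccl5 encodes a chemokine that attracts T cells.

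Members with Veh H3K27ac lay close to H3K4me1 called in GSK. The nearest GSK H3K4me1 peak was a median of 1.58 kb away (quartiles 1.25 kb and 2.53 kb), and it was under 2 kb away at 21 of the 31 (67.7%, 50.1% to 81.4%). Among the 2602 lost enhancers without Veh H3K27ac the median was 7.46 kb, and 15.3% had a GSK peak under 2 kb away (14% to 16.7%). The Veh H3K4me1 fold was lower at the 31 members with Veh H3K27ac, with a median of 2.27 against 4.10 without it. Their median −log10 q was 4.62 against 4.29. The like shares under 2 kb were 24.1% for members with Veh LSD1 (17.0% to 32.9%) and 29.6% for those with Veh H3K4me2 (15.9% to 48.5%).

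At the other 5 members, H3K27ac was called in GSK while H3K4me1 was not. They lay near Rbm38 (4.04-fold in Veh, 4.48 in GSK), Map3k7 (4.89, 5.78), in intron 1 of Capzb (3.26, 4.25), in intron 1 of Gramd1b (4.0, 5.07) and near D230030E09Rik (2.88, 3.8). Map3k7 encodes TAK1, a kinase of NF-κB signalling. Rbm38 also had Pol II in GSK only (6.61-fold). The GSK H3K27ac fold was the higher at all 5. The same was so at 94.8% of the 174 enhancers with H3K27ac in both lists, so lost enhancers did not stand apart in this order.

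H3K4me2 in Veh overlapped 27 lost enhancers (1.03%, 0.706% to 1.49%), against 11.0% of kept enhancers. Gained enhancers were like the lost ones, at 1.10% (0.864% to 1.39%). Kept regions were wider, and the H3K4me2 shares were not compared at equal width. It was absent from GSK at 23 of the 27 (85.2%, 67.5% to 94.1%), against 77.5% over all enhancers with Veh H3K4me2. GSK H3K4me2 was present at 6 lost enhancers (0.228%), against 3.79% of kept, 0.449% of gained and 2.77% of all enhancers. Near Id2, an inhibitor of E proteins that is used by effector CD8+ T cells, a 662 bp member 3.07 kb downstream of the TSS carried H3K4me2 (3.45-fold in Veh, 3.8 in GSK), LSD1 (4.06 and 5.0) and Pol II (3.92 and 2.74) in both treatments. The others lay near Thsd4, near Mir101c, near D230030E09Rik, in Samhd1 and in a coding exon of Grik5. The Mir101c member was 93.3% soft-masked repeat in its central 300 bp.

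Pol II overlapped 10 lost enhancers in Veh (0.380%) and 11 in GSK (0.418%), against 2.01% and 1.5% of kept enhancers. The shares of gained enhancers were 0.349% and 0.249%. Kept regions were wider, and the Pol II shares were not compared at equal width. By the depths the study states, the GSK Pol II library was deeper than the Veh one. Of the 10, 9 had no GSK Pol II peak, against 80.4% over all enhancers with Veh Pol II. Only the Id2 member had Pol II in both lists. Just 2 members carried Veh LSD1 together with Veh H3K27ac. One lay 106 kb downstream of the TSS of D230030E09Rik, and the other lay 36.0 kb upstream of Ncoa3, a coactivator of nuclear receptors, where GSK had none of LSD1, H3K27ac and Pol II.

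Lost enhancers lay at distances from genes close to those of other enhancers, somewhat more often in introns. The median distance to the nearest TSS was 24 kb for lost (quartiles 10.1 kb and 55.3 kb), 22.9 kb for kept and 21.4 kb for gained enhancers. Introns held 53.1% of lost enhancers (51.2% to 55.0%) and 50.1% of kept enhancers (49.4% to 50.8%), and 42.5% (40.7% to 44.4%) and 46.2% (45.4% to 46.9%) were intergenic. Of lost enhancers 38.2% (36.4% to 40.1%) lay upstream of the nearest TSS, against 41.3% of kept enhancers (40.5% to 42%). Coding exons held 60 members and exonic untranslated parts 49. Among intronic members, 32.2% lay in a first intron, against 31.2% of kept ones.

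The distance to the next enhancer of any kind was a median of 9.68 kb for lost, 9.78 kb for kept and 10.5 kb for gained enhancers. The medians were alike, but short gaps were more frequent at lost enhancers. Another enhancer lay within 5 kb of 30.3% of lost (28.5% to 32.1%) and 23.8% of kept enhancers (23.2% to 24.4%). For gained enhancers the share was 27.2% (26.1% to 28.3%). Peaks of a single H3K4me1 list lay at least 1057 bp apart, and a kept enhancer holds peaks of both lists. Close H3K4me1 neighbours were therefore less open to kept enhancers by construction. The part of this in the difference was not tested. Within 25 kb of the centre, 25% of lost and 22.2% of kept enhancers had no other enhancer. Most lost enhancers lay among enhancers that were not lost. Of their neighbours on either side, 10.6% were lost (9.80% to 11.5%), an interval that holds the 9.87% of all enhancers. The share was 9.41% for the neighbours of kept enhancers (9.11% to 9.72%), slightly below that interval. Of all lost enhancers, 2106 had no lost neighbour, 220 runs held 2, 26 held 3, 1 held 4 and 1 held 5.

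The longest run, of 5, spanned 2473 kb on chromosome 1, from Myl1 through Lancl1 and Erbb4 to Ikzf2, and the run of 4 spanned 1869 kb on chromosome X from Armcx6 to Tceal3. The tightest runs of 3 were 5.60 kb long upstream of Gja5, 7.56 kb upstream of Synpo and 13.2 kb in introns of Hdac4, a class IIa histone deacetylase. The 3 Hdac4 members had Veh −log10 q values of 4.44, 5.72 and 6.23. Erbb4 encodes an EGF receptor family kinase, and Gja5 encodes a connexin of gap junctions.

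Close neighbours were more often gained enhancers. At a gap under 2 kb, 51.3% of 417 neighbours of lost enhancers were gained (46.5% to 56.1%), against 28.0% of 1402 neighbours of kept enhancers (25.7% to 30.4%). No adjacent peaks of a single H3K4me1 list were closer than 1082 bp in Veh or 1057 bp in GSK, so below that gap any H3K4me1 neighbour had to come from the other treatment. Between 2 kb and 5 kb the shares were 30.4% (26.4% to 34.7%) and 22.5% (21.1% to 24%). Between 5 kb and 20 kb they were 19.1% and 19.9%, and the intervals overlapped.

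Loss by chromosome ran from 10.8% of Veh enhancers on chromosome 19 to 15.6% on chromosome 18 among autosomes. Chromosome X stood above them, with 62 of 249 lost, or 24.9% (19.9% to 30.6%), against 12.7% on the autosomes (12.2% to 13.1%). Gained enhancers were also frequent on X, at 40.1% of its GSK enhancers (34.8% to 45.6%) against 25%. Kept enhancers on X had a median Veh −log10 q of 5.04 against 6.01 on autosomes. At a −log10 q from 3 to 4 the lost shares were 32.8% on X and 34.9% on autosomes, with overlapping intervals. From 5 to 6 they were 29.3% (17 of 58, 19.2% to 42.0%) and 10.6% (9.64% to 11.6%). The intervals also overlapped from 4 to 5, at 28.2% on X and 20.6%, and from 6 to 8, at 10.6% on X and 5.05%. From 8 to 10, 0 of 10 were lost on X. The part of the weaker peaks on X in this difference was not tested.

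The base composition of lost enhancers was close to that of the others. In the 300 bp at the centre, the median GC content was 47.3% for lost, 48.0% for kept and 47.7% for gained enhancers. The median share of soft-masked repeat was 14.7%, 14.0% and 17.7%. Motifs were searched as exact letters on both strands, where N is any base and a match is a description of the letters, not a bound site.

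The RUNX motif TGTGGT was present at 28.8% of lost enhancers (27.1% to 30.6%), 33.6% of kept (32.9% to 34.3%) and 32.3% of all. RUNX factors set the identity of CD8+ T cells. Lost enhancers also held fewer matches to the ETS motif AGGAAGT, at 16.4% against 18.8% of kept and 17.8% of all, and to the T-box motif AGGTGTGA, at 1.48% against 2.20% and 2.23%. The intervals of lost and kept enhancers did not overlap for RUNX and ETS, and those for T-box overlapped narrowly (1.09% to 2.02% and 2.00% to 2.43%). Against kept enhancers whose Veh peak was narrower than 600 bp, the RUNX share was 28.2% for lost enhancers of that width (26.2% to 30.2%) and 31.1% for kept (29.8% to 32.4%), and the intervals overlapped. The ETS shares at that width were 16.7% and 18.4%, again with overlapping intervals. For T-box they were 1.40% (0.955% to 2.04%) and 1.67% (1.35% to 2.07%), which also overlapped.

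The STAT motif TTCNNNGAA was present at 12% of lost enhancers (10.9% to 13.3%), 10.6% of kept (10.2% to 11.1%) and 10.5% of all. STAT proteins carry the IL-2 signal to chromatin. Among Veh peaks narrower than 600 bp, the STAT shares were 10.9% (9.57% to 12.4%) and 9.11% (8.34% to 9.95%), with overlapping intervals. The NFAT motif TGGAAA was present at 25.1% of lost, 23.3% of kept and 23.5% of all enhancers. The intervals of lost and kept enhancers overlapped for both motifs.

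The remaining motifs had overlapping intervals for lost and kept enhancers. The AP-1 motif TGANTCA, a site of activation-induced factors, was at 14.2% of lost, 14.8% of kept and 14.2% of all enhancers. GATA letters (AGATAA) were at 15.3%, 14.0% and 14.1%, and IRF letters (GAAANNGAA) at 11.4%, 10.8% and 11.0%. The TCF/LEF motif CTTTGAT, read by TCF1 in memory T cells, was at 4.6%, 5.03% and 4.97%.

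E boxes with the letters CAGGTG were at 20.8% of lost, 22.6% of kept and 22.3% of all enhancers, and those with CAGCTG at 16.3%, 17.8% and 17.4%. Rarer motifs were those of GFI1, a factor that recruits LSD1 (0.836% of lost, 0.671% of kept, 0.780% of all), and NR4A (1.82%, 1.76%, 1.76%). NF-κB letters were at 1.18%, 1.41% and 1.33%, and CTCF letters at 0.304%, 0.402% and 0.491%. The GFI1, NR4A and NF-κB motifs searched were AATCACNGC, AAAGGTCA and GGGANTTCC. The letters of ETS, NFAT, STAT and IRF motifs can overlap at a shared GAA.

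**Figure D4:**
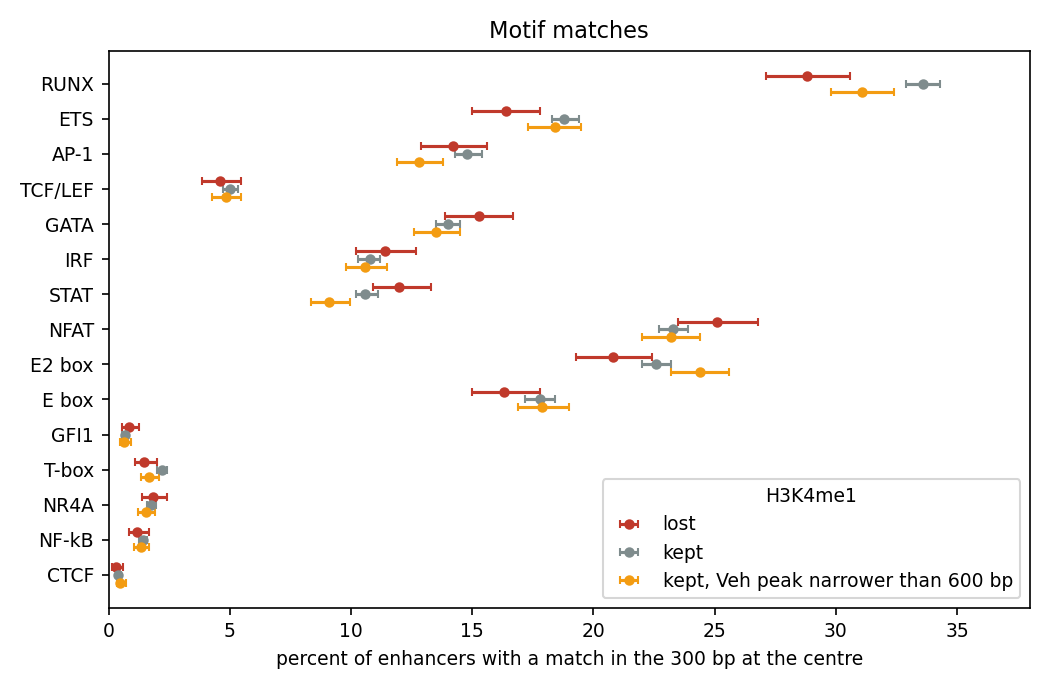
Percent of lost enhancers (red), kept enhancers (grey) and kept enhancers whose Veh peak was narrower than 600 bp (orange) with a match to each motif in the 300 bp at the centre. Points are shares and bars are Wilson 95% intervals for counting error. RUNX shows the widest gap in percentage points between lost (28.8%) and kept (33.6%).

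Nearest genes were assigned by the distance from the centre to a curated TSS, and a nearest gene is not shown to be the target. Lost enhancers had 2193 nearest genes, of the 10059 nearest to any enhancer, and 1862 of these had a single lost enhancer. Gained enhancers shared the nearest gene at 1007 of the 2193. At 471 genes every enhancer was lost, and 456 of them had only 1. Both enhancers were lost at 15 genes, among them Ahr, the aryl hydrocarbon receptor, which was chosen after its values were seen.

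The gene nearest to most lost enhancers was Dad1, a subunit of the oligosaccharyl transferase, with 6 of its 32 enhancers lost. It lies beside the T cell receptor alpha locus, and its lost enhancers, 75.1 kb to 375 kb from its TSS, fell within that locus, as did all 5 nearest to Gm30214. Over the whole Tcra record (chr14:52427967-54224198), 11 enhancers were lost, 41 kept and 16 gained. The lost share of its Veh enhancers was 21.2% (12.2% to 34%), an interval that holds the 12.8% of all enhancers, and none of the 11 carried Veh LSD1. No enhancer was lost in Tcrb (0 of 13, an interval up to 22.8%), and 3 of 12 were lost in Tcrg.

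Rbpj, the DNA-binding factor of Notch signalling, followed with 5 of 20 lost. Their Veh −log10 q values were 3.95, 4.41, 4.73, 5.78 and 8.53, the last at a 1450 bp region 12.1 kb upstream of the TSS. A further 22 genes had 4 lost enhancers each. Those with the largest lost share were D230030E09Rik (4 of 6), the elongation factor gene Aff1 (4 of 8), Nrip1 (4 of 8), which encodes a nuclear receptor corepressor, Pabpc2 (4 of 11), Wwox (4 of 11), F13a1 (4 of 12), which encodes a subunit of coagulation factor XIII, and Edn2 (4 of 13). The Edn2 members all lay in intron 2 of Hivep3, 116 kb to 155 kb upstream of Edn2. D230030E09Rik, Nrip1 and F13a1 had no gained enhancer, as was so at 1186 of the 2193 genes nearest to a lost enhancer.

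Genes of CD8+ T cell function were read in 7 lists. Their lost share of Veh enhancers ran from 2.70% to 12.8%, at or below the 12.8% of all enhancers, and the interval of each list held 12.8%. Each list below is given with its counts, and the enhancers of a gene are not independent.

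Of 12 inhibitory receptor genes, 2 were nearest to a lost enhancer, and 2 of the 32 Veh enhancers of the list were lost (6.25%, 1.73% to 20.1%). At Pdcd1, the 375 bp member in intron 1, 4.89 kb downstream of the TSS, was 3.47-fold enriched in Veh with a −log10 q of 4.90. The nearest GSK peak lay 4.76 kb away, and the other Pdcd1 enhancer was kept. At Cd244a, which encodes the receptor 2B4, a member in intron 3 was 4.07-fold enriched (−log10 q 3.77). Neither carried another mark in either treatment.

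Of the effector and cytokine list, 6 of 47 Veh enhancers were lost (12.8%, 5.98% to 25.2%). Ifng, which encodes interferon gamma, had 2 lost, 7 kept and 2 gained enhancers. Its lost members lay 54.2 kb upstream (5.13-fold, −log10 q 4.93) and 30.2 kb downstream (2.27-fold, 3.37). At Ccl5, 5.49 kb upstream of the TSS, a 771 bp member had a −log10 q of 9.59, the highest of any list member, with Veh H3K4me2 at 4.22-fold and Veh H3K27ac at 3.36-fold, and neither was called in GSK. Lost enhancers of Fasl (2.34-fold) and Tnfsf10 (4.68-fold), ligands that induce cell death, and 1 at Gzmb, the protease granzyme B, completed the list.

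Of the memory and progenitor list, 13 of 110 Veh enhancers were lost (11.8%, 7.04% to 19.2%). Bach2, a repressor that restrains effector differentiation, had 4 lost, 16 kept and 3 gained enhancers, and its lost members lay 11.7 kb, 110 kb, 120 kb and 201 kb upstream. Foxp1, a factor of T cell quiescence, had 4 lost, 24 kept and 6 gained enhancers. Its lost members in introns 2 and 6 were 1.99- to 3.20-fold enriched, and 1 of them carried Veh LSD1 (3.46-fold) and another Veh H3K27ac and GSK Pol II (3.20-fold). A member in Foxo1 intron 1 had a −log10 q of 6.23, and 1 at 3.75 kb downstream of the Klf2 TSS had 3.84. Il7r, Tcf7 and Lef1 had 1 lost enhancer each.

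Of the effector transcription factor list, 21 of 176 Veh enhancers were lost (11.9%, 7.94% to 17.6%), spread over 13 of 27 genes. Stat4, a factor downstream of IL-12, had 3 lost, 2 kept and 1 gained, with the lost ones in introns 3 and 4. Ikzf2, which encodes Helios, had 3 lost, 2 kept and 2 gained, with the nearest GSK peak 30.3 kb to 58.6 kb away. Maf had 3 lost of 25, all 177 kb or more from its TSS, and the 2 farthest lay in intron 8 of Wwox.

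Runx3, a factor needed for the CD8 lineage, had 2 lost of 17. The stronger in other marks, 16 kb upstream, carried Veh H3K4me2 (4.03-fold) and Veh H3K27ac (3.44-fold), with H3K4me1 at 1.80-fold and the nearest GSK peak 1.39 kb away. Tox, a factor of exhausted T cells, had 2 lost of 14. The genes with 1 lost enhancer were Prdm1, Id2, Batf, Nr4a2, Nfatc2, Ikzf3, Runx1 and Ets1, and that of Nr4a2 was its only enhancer.

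**Figure D5:**
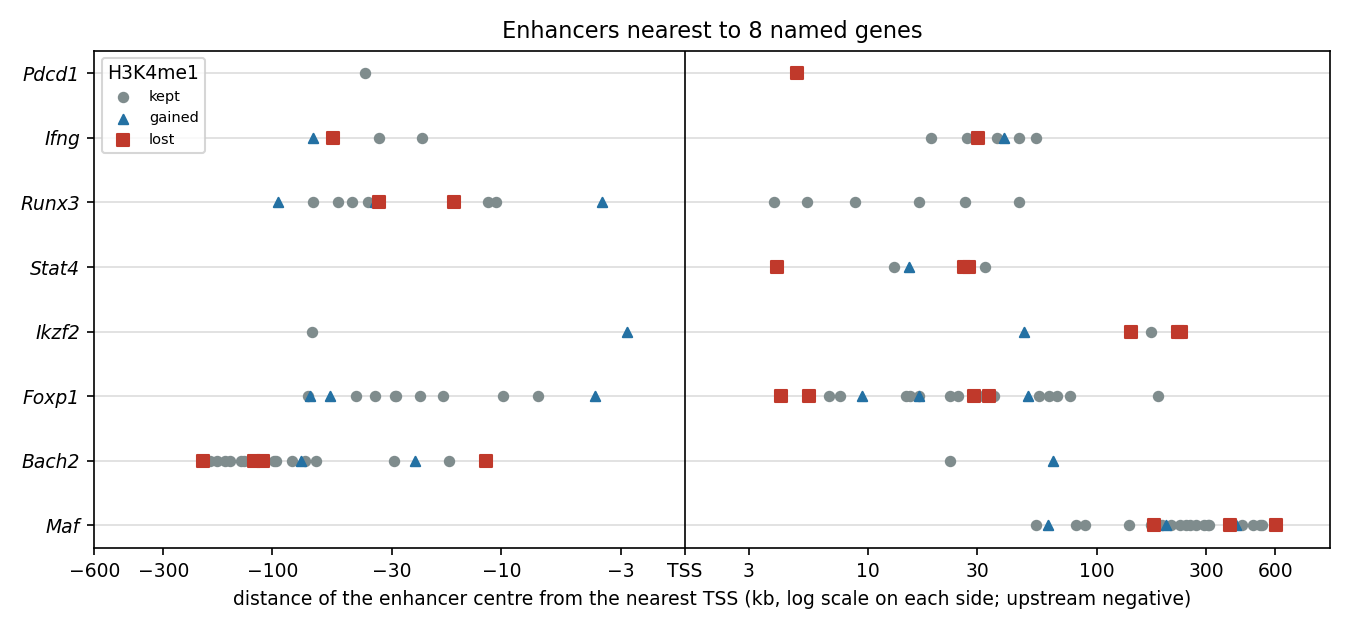
Enhancers nearest to 8 named genes, by distance of the enhancer centre from the TSS in kb on a log scale on each side, with upstream to the left. Red squares are lost, grey circles kept and blue triangles gained enhancers. Lost enhancers lay among kept ones at Foxp1 (4 of 34) and Bach2 (4 of 23), and the lost Pdcd1 member lay 4.89 kb downstream of the TSS.

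Of the TCR signalling and costimulation list, 9 of 90 Veh enhancers were lost (10.0%, 5.35% to 17.9%). Ptpn22, a phosphatase that dampens receptor signalling, Icos, a costimulatory receptor, and Vav1, a guanine nucleotide exchange factor, had 2 each. The Veh folds of these 6 ran from 1.99 to 3.39, and an Icos member 69.4 kb downstream had LSD1 in GSK only (5.01-fold). Prkcq intron 1 held a member with a −log10 q of 5.1, and Cd6 and Cblb had 1 each.

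Of the cytokine and chemokine receptor list, 7 of 80 were lost (8.75%, 4.30% to 17.0%). Cxcr4 had 2 lost of 25, at 14.5 kb upstream (−log10 q 5.45) and 25.9 kb downstream (4.09). Il2rb, which encodes the beta chain of the IL-2 receptor, had a member in intron 3 with 6.35, and Ifngr1 had a 1517 bp member 7.59 kb upstream with 6.30 and Pol II in GSK only (3.06-fold). Il2ra, Il6ra and Tgfbr1 had 1 lost enhancer each. Of the LSD1 complex and H3K4 methylation list, 1 of 37 was lost (2.70%, 0.479% to 13.8%). It lay 111 kb upstream of Gse1, a protein found with LSD1 complexes, with a GSK H3K4me1 peak 78 bp away.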

How the data were processed

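ChIP libraries of 6 antibodies and 2 treatments were used, 12 peak lists in all, while the 4 inputs have no list and were not used here. The submitters' processing notes name Bowtie2, MACS2, bedtools and edgeR with mm10. By the methods, the authors mapped reads uniquely to mm10, removed duplicates and ran MACS2 against input with a p cutoff of 0.001. In Veh the lowest −log10 p was 3.01 for LSD1 and 3.00 for Pol II, as this cutoff gives. For Veh H3K4me1 it was 5.08, with a lowest −log10 q of 3.01, so the lists did not share 1 threshold. They also drew equal read numbers at random to compare signals, and it is not clear whether peaks were called on those reads. Each library was called on its own. The authors deposited for each peak a fold enrichment (ratio of ChIP to local background), a −log10 p, a −log10 q and a score derived from them. For broad histone regions these are averages over the region. Read depth is not in the lists, and each group has n = 1.

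Overlap of 1 bp was counted, with TSSs and sequence from RefSeq GRCm38.p6 (31510 curated TSSs of 26089 genes). Position, motifs and repeats were read at the region centre, in 300 bp for sequence. Intervals are Wilson 95% intervals. Python 3.11.15 with pandas 2.3.3, numpy 2.4.6, pysam 0.24.0 and matplotlib 3.10.9 was used, and the overlap code was tested on simulated data.

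The members, gene lists and motifs were chosen with earlier results of these data known. Named were the 10 genes nearest to most lost enhancers (ties by share lost), up to 4 genes a list, the 10 strongest in H3K4me1, the 5 strongest in LSD1, members with LSD1 and H3K27ac, the 5 longest runs, the 5 widest, and 3 on either side of the rule. Members with GSK H3K27ac or H3K4me2, members with GSK LSD1 or Pol II alone, Ahr, the receptor loci, chromosome X, and the comparisons by Veh peak width and by distance to a GSK peak were chosen after their values were seen. Alternatives were stricter or equal-length H3K4me1 lists, wider overlap, other TSS distances and annotation, H3K4me3 regions kept, and other windows. One sequence and one marker gene are not reported here.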

Additional observations from a re-analysis of the deposited data

How the results depend on the processing

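The H3K4me1 lists decided most. With lists of equal length, 4195 enhancers were lost (20.4% of Veh enhancers), and the ratio of lost to gained passed from 0.438 to 1.08. Both moves are largely fixed by the setting, which shortened the GSK list alone. In that setting 5.20% of lost enhancers carried Veh LSD1, their median width was 488 bp and 17.7% of their neighbours were lost. With only peaks of a −log10 q of at least 5 in both lists, 2459 were lost against 2633, which was 18.6% of Veh enhancers at a ratio of 0.497. When a lost enhancer itself had to reach 5, 717 were left (3.49%, ratio 0.119), with Veh H3K4me2 at 1.67%, a median width of 396 bp, 2.65% of neighbours lost, 22.7 kb to the nearest TSS and 49% GC. When a GSK peak within 1 kb counted as kept, 12.1% were lost, at a ratio of 0.412. The lost share was 13.5% with a TSS distance of 1 kb and 11.8% with H3K4me3 regions kept. A Veh LSD1 peak within 1 kb of the centre was present at 8.13% of lost and 25.2% of kept enhancers, and a RUNX match in 1000 bp at 67.8% and 69.7%. The other 26 values moved by less than their counting interval, or by less than 1.5 times for counts. No paired analysis was possible because each antibody and treatment had 1 library, and no replicate could be left out. From peak lists alone, a peak lost from the list cannot be told apart from a signal just below the threshold, and signal tracks were not used here.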
